A study of Sus scrofa with 20 samples.

Results

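The cell cycle and mitosis genes were examined as a set of 50 named genes across 20 pig RNA-seq libraries. The members were matched to rows by gene name, and the list was chosen with earlier results of these data known. Of the 50 names, 43 had a row among the 25764 rows of the deposited table, and CCNE1, RRM1, CCNA2, CDK1, AURKA, PLK4 and CDKN1C had none. KIF23, a kinesin of cytokinesis, was listed at 5.71 normalized counts in 1 library and at or under 3 reads in the other 19, so 42 genes entered the tests.

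The libraries were made from poly(A) RNA of 6 groups of cells. The 5 libraries of porcine biliary tree stem cells (pBTSCs) came from the gallbladder by their labels, while the study describes them as cells of the biliary tree, with the common and hepatic ducts named beside the gallbladder in its methods. They came from H2B-GFP piglets of 1 day (S2 and S7) and 2 days (S11) and from wild-type piglets of 1 day (S15 and S20), where H2B-GFP is histone H2B joined to green fluorescent protein at the ACTB locus. The study defines biliary tree stem cells as CD45-/EpCAM+ cells. Its methods describe selected stem cells kept for some hours in serum-free medium to form organoids. Whether the sequenced pBTSCs were so kept is not clear from the sources used here. The 15 liver libraries were made from cells sorted by surface antigen. CD45+ cells gave 5 libraries and CD45-/EpCAM+ cells 4, while 2 libraries each were labelled CD45-/EpCAM-, CD31+ or CD146+. CD45 marks blood-derived cells, EpCAM epithelium, CD31 endothelium, and CD146 cells of vessel walls. The age, line and donor of each liver library are not given in the sources used here. No treatment is named in the labels.

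Libraries are called by their title numbers. The liver titles fall into 8 libraries from S3 to S14 and 7 from S16 to S23. The pBTSC numbers part them further into 5 runs, called title sets here, namely S3 to S5, S8 and S9, S12 to S14, S16 to S19, and S21 to S23. Estimated depth was 21200000 to 77800000 reads in 17 libraries and 455000 to 1570000 in 3, which are S13 (CD45-/EpCAM+), S15 (pBTSCs) and S22 (CD146+). In S22, 3 reads are worth 156 normalized counts, and 7 of the 43 genes lay at or under that floor. The 5 pBTSC libraries came from 5 piglets, whereas nothing ties the liver libraries to separate animals, so p-values measure the spread between these libraries, which for liver may be technical. The sorted labels were not mirrored by single cell types, since ALB, the albumin of hepatocytes, took 2.19% to 7.60% of all normalized counts in every liver library. EPCAM stood at 1089.6 and 491 normalized counts in the CD45-/EpCAM- libraries S5 and S14.

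A cell enters the cycle through cyclin D and cyclin E kinases, which free the E2F transcription factors to switch on DNA replication genes. The MCM helicase, loaded with CDC6, unwinds DNA, PCNA clamps the polymerase, and RRM2 and TYMS supply nucleotides. Later, MYBL2 and FOXM1 drive the genes of mitosis, among them the B cyclins, the Polo and Aurora kinases, the spindle checkpoint and the kinesins. CDKN1A (p21) inhibits the kinases and holds cells out of the cycle. In the liver of young mammals, hepatocytes, resident macrophages and residual blood-forming cells can all divide. In bulk RNA, fewer dividing cells and less RNA per dividing cell cannot be told apart.

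Most of the set rose and fell together between liver libraries, and libraries of one title set lay close whatever their label, except in S3 to S5. The levels were lowest in S3 and S4, higher in S8 and S9, and highest in S5 and S12 to S14. As a median of log2 differences from each gene's mean, the 42 genes stood at -0.28 to -0.13 from S16 to S23. S3 and S4 were lower, at -0.92 and -1.02, and S8 and S9 higher, at 0.10 and 0.31. Genes departed from this order, since those of the spindle, kinetochore and cytokinesis stood at -0.15 to -0.02 from S16 to S23 and at -0.21 in S8. The median of the 43 genes was 325 and 254 normalized counts in S3 and S4, against 1009 in S5 of the same title set. It was 546 and 640.5 in S8 and S9, and 1160.0 to 1364 in S12 to S14. In the 7 libraries from S16 to S23 it lay between 423 and 627, and in pBTSCs between 376 and 712. The map of all genes by library shows S3 and S4 low and S5 and S12 to S14 high in most rows.

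**Figure D1:**
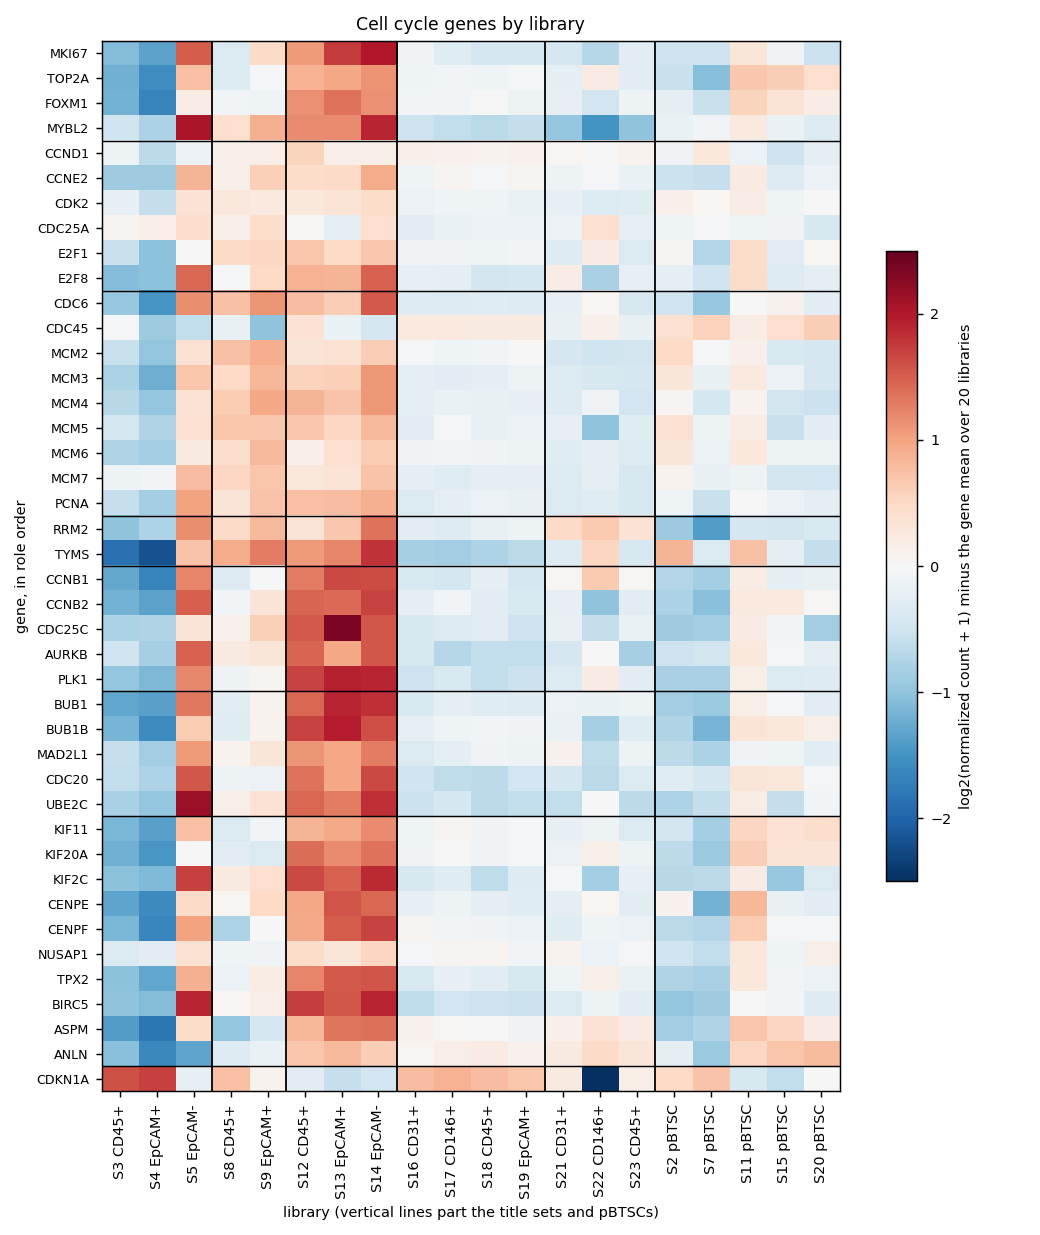
Each row is 1 of the 42 tested cell cycle genes in role order and each column 1 library, with vertical lines between title sets and pBTSCs on the right. Colour is log2(normalized count + 1) minus the gene's mean over 20 libraries, and the columns S5 and S12 to S14 are red in most rows, S3 and S4 blue, and CDKN1A runs the other way.

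MKI67, whose Ki-67 protein marks cycling cells, stood at 1260.0, 1056 and 7645 normalized counts in S3, S4 and S5, at 2089.9 and 3701 in S8 and S9, and at 5563, 8998 and 10736 in S12, S13 and S14. From S16 to S23 it lay between 1618 and 2503, with a median of 1999. In pBTSCs it was 1872, 1861, 3310.5, 2499 and 1844 in S2, S7, S11, S15 and S20. The 3 libraries S12 to S14 and S5 lay above all other libraries, and the pBTSCs overlapped those from S16 to S23. TOP2A, the topoisomerase that untangles chromosomes before they part, was 766, 596 and 2968 in S3 to S5, 1394 and 1697 in S8 and S9, and 3189, 3419 and 3818 in S12 to S14. From S16 to S23 it lay between 1434 and 2035, and in pBTSCs it was 1194, 844, 2789.6, 2699.9 and 2334 in the order given for MKI67. S12 to S14 were again the highest, whereas the pBTSC libraries spread over more than a 3-fold range, with S11, S15 and S20 above all libraries from S16 to S23.

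CCNB1, the cyclin B that drives entry into mitosis, was 177, 135 and 1009.8 normalized counts in S3 to S5, 343 and 429.6 in S8 and S9, and 1052, 1362 and 1344 in S12 to S14. It lay between 319 and 678 from S16 to S23, and at 259, 239, 492, 364 and 379 in pBTSCs S2, S7, S11, S15 and S20. S5 and S12 to S14 stood above every other library with no overlap. AURKB, the Aurora kinase of the chromosomal passenger complex, was 111, 87.3 and 435 in S3 to S5, 184 and 195 in S8 and S9, and 429, 309 and 461 in S12 to S14. It lay between 87.4 and 156 from S16 to S23, and at 109, 114, 187, 151 and 134 in pBTSCs. The value of S22 equals its 3-read floor. BIRC5 (survivin), a partner of AURKB in that complex, was 169.5, 161 and 1276 in S3 to S5, 355 and 382 in S8 and S9, and 1142, 1003 and 1278 in S12 to S14. It lay between 221 and 313 from S16 to S23, and at 172, 185, 341, 327 and 272 in pBTSCs. For both genes S5 and S12 to S14 lay apart above the rest.

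Among liver libraries other than the shallow S22, PCNA, MCM5 and RRM2 were also lowest in S3 and S4, but S8 and S9 stood nearer to S12 to S14. PCNA was 1182, 988 and 3571 normalized counts in S3 to S5, 2204 and 2903 in S8 and S9, and 2982, 3034 and 3299.7 in S12 to S14. It lay between 1346 and 1611 from S16 to S23, and at 1643, 1209.9, 1782, 1602 and 1520.0 in pBTSCs. MCM5, a subunit of the replicative helicase, was 462, 374 and 826 in S3 to S5, 1009.6 and 1005 in S8 and S9, and 997, 899.8 and 1094 in S12 to S14. S8 and S9 thus lay within the range of S12 to S14 for MCM5, above S5, and below that range for PCNA. MCM5 lay between 313 and 607 from S16 to S23, with the lowest value in the shallow S22, and at 817, 571, 712, 427 and 515 in pBTSCs. RRM2, the regulated subunit of ribonucleotide reductase, was 692, 812 and 3116 in S3 to S5, 1939 and 2429.6 in S8 and S9, and 1729, 2211 and 3548 in S12 to S14. S8 and S9 were above S12 for this gene. RRM2 parted the title sets S16 to S19, at 1105 to 1269, from S21 to S23, at 1779.7 to 2192, and was 743, 524, 1033, 1018 and 1069.7 in pBTSCs. All 5 pBTSC libraries lay below every library from S5 onward in title order and overlapped only S3 and S4.

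E2F1 and CCND1 act at the entry into the cycle. E2F1, a transcription factor of replication genes, was 123, 88.5 and 183 normalized counts in S3 to S5, 254 and 259 in S8 and S9, and 294, 257 and 290.3 in S12 to S14. It lay between 141 and 209 from S16 to S23, and at 190.4, 109, 252, 151 and 188 in pBTSCs. CCND1, the cyclin D that answers growth signals, was 2754, 1895 and 2704 in S3 to S5, 3258 and 3352 in S8 and S9, and 4412, 3316 and 3325 in S12 to S14. Outside S4 and S12 its liver values stayed between 2704 and 3352, and the pBTSCs, at 2838, 3625, 2711, 2097 and 2528, overlapped them.

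CDKN1A ran against the set. It was 235, 254 and 66.8 normalized counts in S3 to S5, 132 and 82.0 in S8 and S9, and 63.0, 51.4 and 55.6 in S12 to S14, where S13 was under its floor of 77.1. It was 125 to 143 in S16 to S19, 90.1 and 87.4 in S21 and S23, and listed at 0 in the shallow S22. In pBTSCs it was 110.3, 127, 58.3, 50.4 and 78.2. The highest values thus lay in S3 and S4, where most other genes of the set were lowest, and among deep pBTSC libraries the lowest lay in S11.

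**Figure D2:**
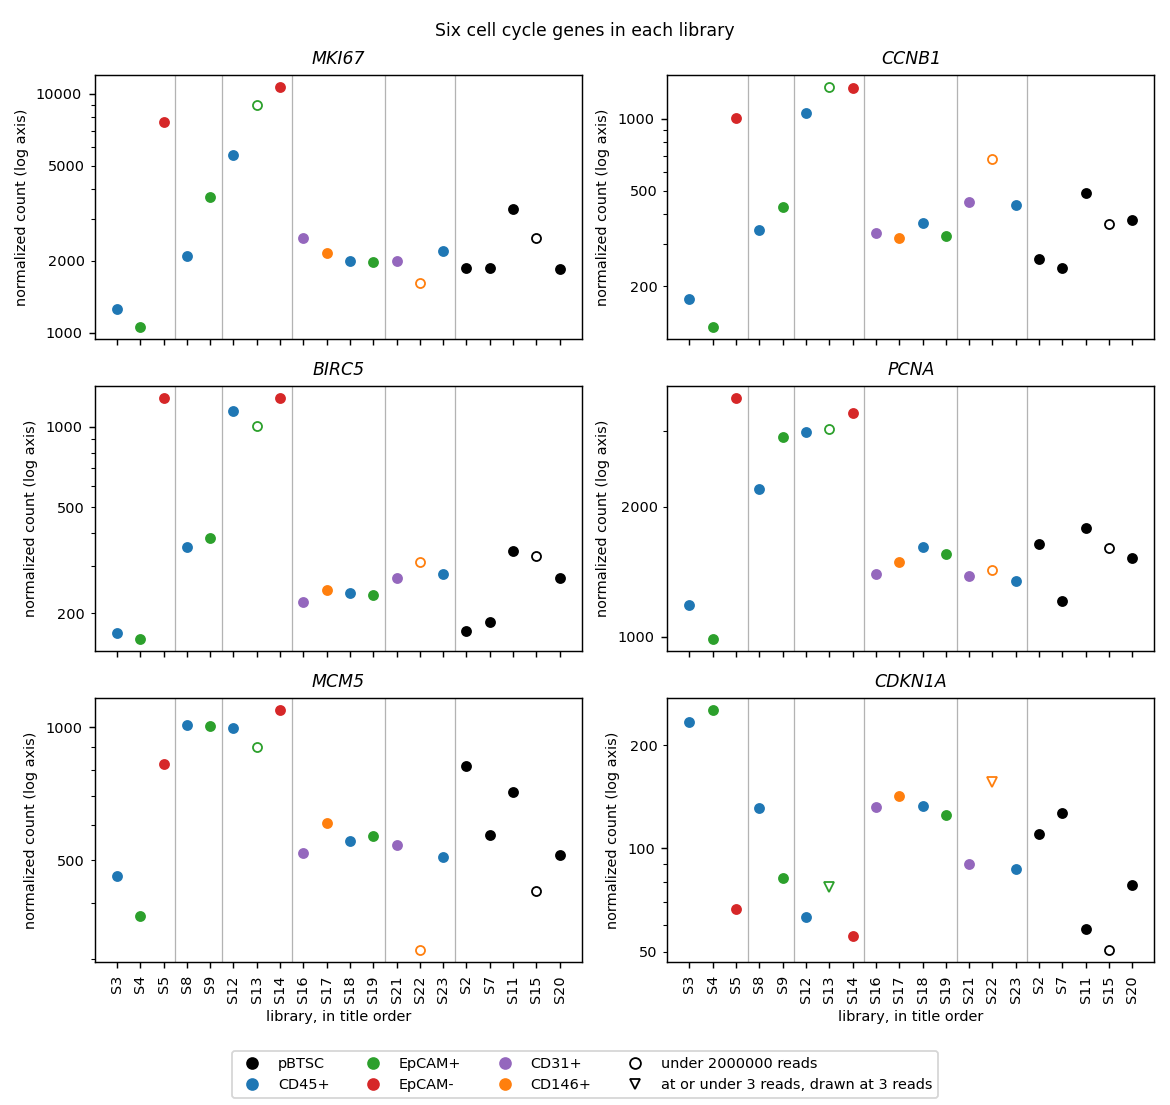
Normalized counts (log axis) of MKI67, CCNB1, BIRC5, PCNA, MCM5 and CDKN1A in each of the 20 libraries, coloured by group, with open circles for the 3 libraries under 2000000 estimated reads and triangles for values at or under 3 reads, drawn at 3 reads. S5 and S12 to S14 are at the top for the first 4 genes, and S3 and S4 are at the top for CDKN1A.

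How closely the genes moved together was described by the Pearson correlation of each with the mean of the other 41 on the log2 scale. It was taken over the 17 deeper libraries, which share title sets and are not independent, and is given with no p. The median correlation was 0.90, and 32 of 42 genes were above 0.8. The other 10 included 4 of 9 DNA replication genes. CDKN1A stood at -0.86, CDC45, part of the replicative helicase, at -0.16, ANLN, the anillin of the cleavage furrow, at 0.44, and CCND1 and CDC25A, a phosphatase of G1 exit, at 0.49 each. The helicase subunits MCM7, MCM2 and MCM6 stood at 0.67, 0.70 and 0.76, and RRM2 and ASPM, a protein of the spindle poles, at 0.79 and 0.80. CDC45 was 1541 to 3982 normalized counts in liver with no order by title set shared with the MCM genes, and 3524 to 4713 in pBTSCs. The genes outside the set with the profile most like its mean were MELK, NCAPH, RPA2, NCAPG, NDC80, NUF2, CDCA8, HJURP, MIS18A and INCENP, with correlations of 0.97 to 0.98 over the 17 libraries.

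The first comparison asked whether the genes differed between the liver titles S16 to S23 and S3 to S14 with the sorted label held. None of the 42 genes was called higher or lower (limma, Benjamini-Hochberg adjusted p under 0.05 and absolute log2 fold change above 1), and 3 had an unadjusted p under 0.05. Over all 14910 genes tested, 2.27% were called higher and 1.51% lower from S16 to S23. The median log2 fold change of the 42 genes was -0.30, with 34 below 0, against 0.03 for all genes tested. MYBL2, the B-Myb factor of mitotic genes, had the largest difference, of -1.13 (SE 0.43, adjusted p = 0.123, limma). Its levels were 342 to 2449 normalized counts from S3 to S14 and 209 to 415 from S16 to S23. The ranges overlapped only through S4, at 342, since S3, the next lowest of the earlier titles, was at 422. With no sorted label in the model 4 genes were called lower, a share of 9.52%, where 5.49% of all genes were. Whether the contrast differed between CD45+ and CD45-/EpCAM+ cells was tested by an interaction term, which called 0 of 42 genes and 0% of 14655 genes tested, with 0 of the 42 and 61 of all genes at an unadjusted p under 0.05.

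Since both ranges hold unlike title sets, the 5 sets were compared directly with sorted label held, a test added after the values were seen. A gene was called by the F test of limma at an adjusted p under 0.05 where the highest and lowest set differed by more than 1 on the log2 scale. Of the 42 genes 30 differed between title sets, against 23.3% of all 14910 genes tested. The median difference between the highest and lowest set was 1.65, against 0.95 for all genes tested. All 5 mitotic cyclins and kinases and all 4 proliferation markers and regulators differed, as did 9 of 10 genes of the spindle, kinetochore and cytokinesis, both nucleotide genes, 6 of 9 replication genes and 3 of 5 genes of the spindle checkpoint and APC/C. Only 1 of 6 G1/S genes did, E2F1 with a difference of 1.17 (adjusted p = 0.0203, limma).

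The largest difference among the 30 was that of TYMS, thymidylate synthase, at 2.78 (adjusted p = 0.00193, limma). It was 167, 134 and 1009 normalized counts in S3 to S5, 1162 and 1490.3 in S8 and S9, and 1288, 1436 and 2141 in S12 to S14, and lay between 337 and 386 in S16 to S19. ANLN had the smallest adjusted p, at 1.3e-04 (limma, difference 2.02). It was 351, 236 and 289 in S3 to S5, 578 and 640.5 in S8 and S9, and 1101 to 1271 in S12 to S14, so S5 did not share the rise seen in MKI67. In S16 to S23 ANLN lay between 749 and 1000.4. CDKN1A had a difference of 2.65 that was not called (adjusted p = 0.227, limma) and rests in part on the 0 of S22.

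The number of called genes depended on few libraries. Without S12 it was 18, or 42.9%, where 22.4% of all genes were called. Without S13 it was 19, or 45.2%, against 20.1% of all genes, and without both shallow liver libraries, S13 and S22, it was again 19, against 28.2%. Without S12 to S14 altogether it was 31, while 17.9% of all genes were called.

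Libraries of 1 label from different title sets show the steps directly, with 1 library each and so no test. S12 against S3, both CD45+, was higher in 40 of 42 genes and over 2-fold higher in 33, with a median difference of 1.96 on the log2 scale against -0.05 for all genes. S13 against S4, both CD45-/EpCAM+, was over 2-fold higher in 35 genes, with a median of 2.02. S14 against S5, both CD45-/EpCAM-, was over 2-fold higher in 4 genes, with a median of 0.37. Of all genes 10.2%, 13.5% and 10.98% were over 2-fold higher in these 3 pairs, so the last count was near the share of all genes. Between S16 to S19 and S21 to S23 there was no such step, since S23 against S18, both CD45+, had a median of -0.06 and S21 against S16, both CD31+, one of -0.02, each with 0 genes over 2-fold higher or lower. Few of all genes were either, with 3.14% over 2-fold higher and 3.13% lower in S23 against S18. In S21 against S16 these shares were 2.54% and 4.55%. Among the 5 CD45+ libraries S12 was the highest for 34 of 42 genes and S3 the lowest for 34. S8 was the highest for 7. These orders were not counted over all genes.

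Different labels within 1 title set were close, except in S3 to S5. Across S16 to S19, which hold CD31+, CD146+, CD45+ and CD45-/EpCAM+ cells, the highest library was a median 1.13-fold above the lowest, and at most 1.27-fold, for KIF2C. Between S21 (CD31+) and S23 (CD45+) the median was 1.05-fold. Across S12 to S14 it was 1.32-fold, with RRM2 at 2.05-fold. Across S3 to S5 it was 4.30-fold, and S5 was over 2-fold above S4 in 34 of 42 genes and over 2-fold below it in 1, CDKN1A. The shares of all genes in that pair were 12.3% over 2-fold higher and 13.2% over 2-fold lower. S3 and S4 themselves differed by a median 1.21-fold. Within S16 to S19 and S21 to S23 all genes lay close too. The median absolute log2 difference was 0.06 for the 42 genes and 0.09 for all genes in S19 against S18. In S21 against S23 it was 0.07 and 0.10, and in S4 against S3 it was 0.27 for both. The folds between highest and lowest library were not taken over all genes.

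**Figure D3:**
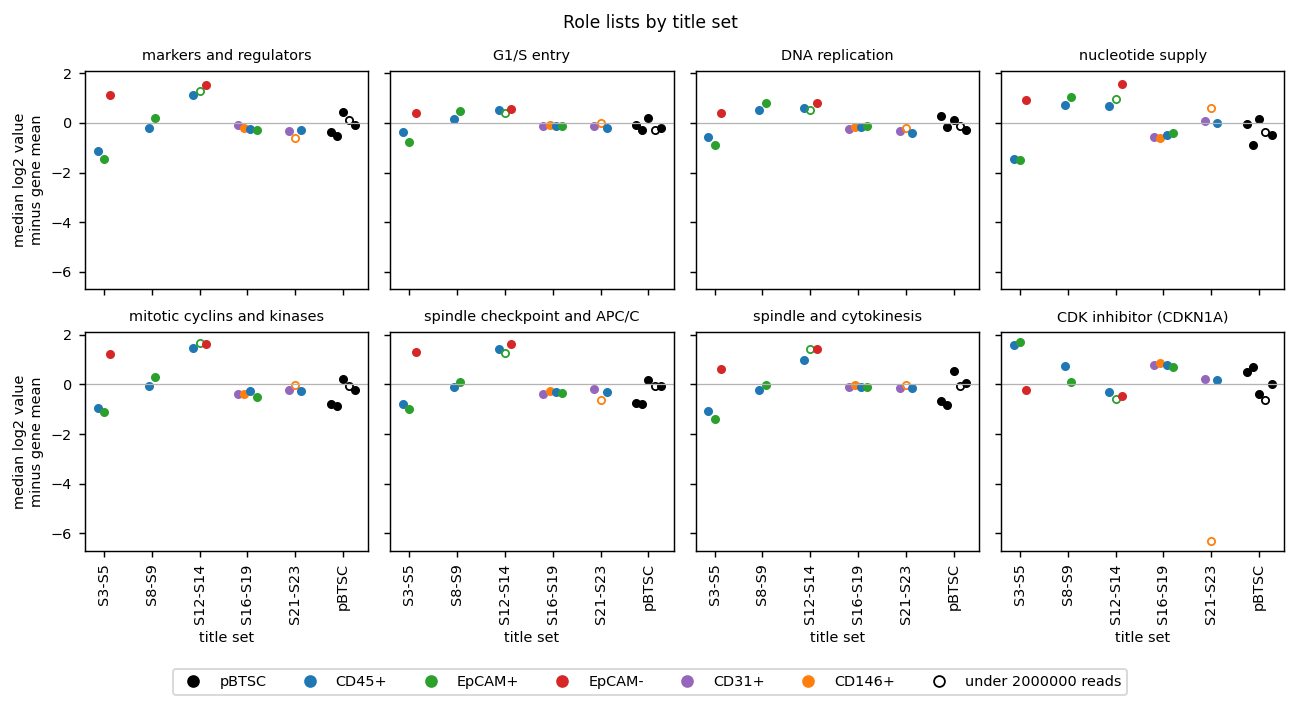
Median over the genes of each role list of log2(normalized count + 1) minus the gene's mean over 20 libraries, for each library by title set, with pBTSCs at the right and colours for the sorted groups. The points of S16 to S19 lie together in every panel, S5 (red, first set) lies apart from S3 and S4, and the CDKN1A panel runs the other way, with the shallow S22 at 0 counts far below.

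The sorted labels gave no called gene with title range held. CD45+ against CD45-/EpCAM+ cells called 0 of 42 genes and 0% of all 14910 genes (limma). At an unadjusted p under 0.05 there were 0 of the 42 and 134 of all genes. CD31+ and CD146+ against CD45+ cells likewise called 0 of 42 and 0% of all, with 0 and 9 at an unadjusted p under 0.05. CD45-/EpCAM- against CD45-/EpCAM+ cells called 0 of 42 and 0.617% of all genes, although the median difference of the 42 was 0.99, against 0.03 for all genes, and 8 had an unadjusted p under 0.05. The largest was that of UBE2C, the ubiquitin-conjugating enzyme that works with the APC/C, at 1.75 (SE 0.60, adjusted p = 0.156, limma). UBE2C was 2095 and 1675 normalized counts in the CD45-/EpCAM- libraries S5 and S14, and 238, 613, 1157 and 308 in the CD45-/EpCAM+ libraries S4, S9, S13 and S19. The groups did not overlap, but the CD45-/EpCAM+ libraries S4 and S13 lay far apart from each other. With the title set in place of the range as covariate 6 of the 42 genes were called higher in CD45-/EpCAM- cells, namely MYBL2, CDC6, MCM3, RRM2, TYMS and CDC20, where 1.58% of all genes were. With title range held, 6 of 10 erythroid markers were higher in the CD45-/EpCAM- cells, where 32 of all 14910 genes were. In that fit 0 of 6 markers of neutrophils and granulocyte precursors, 0 of 6 of macrophages and 0 of 8 of hepatocytes were called.

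Against CD45-/EpCAM- liver cells the pBTSCs were lower for much of the set. Of the 42 genes 19 were lower and 0 higher (limma over all 20 libraries), where 16.6% of all 15576 genes tested were lower and 20% higher. The median log2 fold change was -1.16, against 0.04 for all genes. The called genes were 4 of 5 mitotic cyclins and kinases (CCNB1, CCNB2, AURKB and PLK1), 4 of 5 genes of the spindle checkpoint and APC/C (BUB1, MAD2L1, CDC20 and UBE2C) and 4 of 10 genes of the spindle, kinetochore and cytokinesis (KIF2C, CENPF, TPX2 and BIRC5). With them were MKI67 and MYBL2 of 4 proliferation markers and regulators, CCNE2 and E2F8 of 6 G1/S genes, CDC6 and PCNA of 9 replication genes, and RRM2 of 2 nucleotide genes. In 30 of 42 genes every pBTSC library lay below both CD45-/EpCAM- libraries, which was so for 30% of all genes.

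BIRC5 had the largest fold change, at -2.35 (SE 0.63, adjusted p = 0.00524, limma). It was 259 ± 78.2 normalized counts (SD, n = 5) in pBTSCs and 1276 and 1278 in S5 and S14, so the groups lay far apart. UBE2C, at -2.35 (SE 0.56, adjusted p = 0.00258, limma), was 379 ± 111 (SD, n = 5) in pBTSCs, with a highest value of 538, against 2095 and 1675. KIF2C, a kinesin that corrects faulty attachments to the spindle, fell by 2.28 on the log2 scale (adjusted p = 0.00625, limma). MKI67 was 2277 ± 641 (SD, n = 5) in pBTSCs and 7645 and 10736 in S5 and S14, a fold change of -2.03 (SE 0.59, adjusted p = 0.00932, limma). RRM2 had a fold change of -1.97 (SE 0.45, adjusted p = 0.00165, limma), the smallest adjusted p of the set.

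Other genes of the set did not pass. CDC45 was 0.96 higher in pBTSCs (SE 0.26, adjusted p = 0.00642, limma), just under the fold needed, and MCM7, another helicase subunit, was at -0.97 (SE 0.25, adjusted p = 0.00405). CCND1 had the smallest absolute fold change, at -0.14 (SE 0.23, adjusted p = 0.631, limma). CDKN1A had a fold change of 0.38 with an SE of 1.16.

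**Figure D4:**
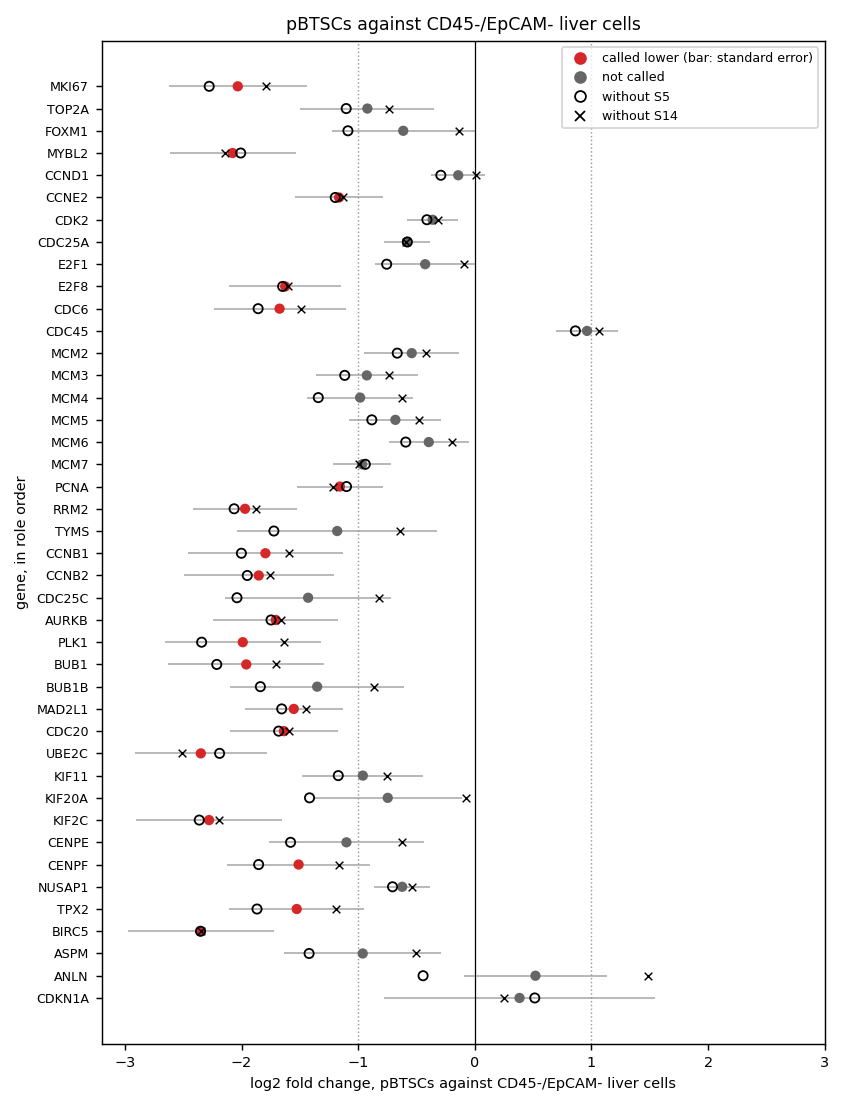
Log2 fold changes of pBTSCs against CD45-/EpCAM- liver cells for the 42 tested genes in role order, with standard errors as bars, red for the 19 called lower and grey for those not called, open circles without S5 and crosses without S14. Both single-library versions lie left of 0 for most genes, further left without S5 (median -1.50) than without S14 (median -0.84).

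This difference rests on 2 liver libraries. Without S5 5 genes were called lower, and without S14 7 were called lower and 1 higher, CDC45, while the medians were -1.50 and -0.84. Of all genes 8.80% were lower without S5 and 17.8% without S14, so in these fits the count of the set was near that of all genes, unlike with both libraries. KIF2C, UBE2C, RRM2 and MAD2L1 were called lower in either case. In S5 and S14, HBB, the beta-globin of red cells, was 840919 and 181672 normalized counts, against 1355 to 41024 in the other 13 liver libraries. Of 10 erythroid markers 9 were lower in pBTSCs than in CD45-/EpCAM- cells, as were 5 of 6 markers of neutrophils and granulocyte precursors, all 6 of macrophages and all 8 of hepatocytes. The summed erythroid markers were 202619 and 898492 in CD45-/EpCAM- libraries and 31421 to 130382 in pBTSCs. The granulocyte markers summed to 11877 and 46807 against 177 to 5214, and no erythroid or granulocyte marker was at its floor throughout either group. The part of these cells in the result was not tested. With each library scaled to the same total, 5 genes were called lower and 1 higher, where 9.64% of all genes were lower and 29.7% higher. The share of the set called was thus again near or under that of all genes, while the gap between the median of the 42 genes and that of all genes was -1.20 both as deposited and rescaled.

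Other genes of the cell cycle, from a list of 69 of which 59 were tested, were counted in the same way. Of these 59, 27 were lower and 1 higher in pBTSCs than in CD45-/EpCAM- cells, where 16.6% of all genes were lower and 20% higher. The 27 were 12 of 23 mitosis genes, 10 of 18 replication genes, 3 of 13 G1/S genes and 2 of 5 CDK inhibitors. They come from the same libraries S5 and S14 as the counts of the set, and so are not a separate test. The largest falls were those of E2F2, an activator of replication genes, at -2.30 (SE 0.44), DLGAP5, a spindle protein, at -2.27 (SE 0.61), CENPA, the histone of centromeres, at -2.22 (SE 0.57), NCAPG, a condensin subunit, at -2.19 (SE 0.59), and CDCA8, of the chromosomal passenger complex, at -2.05 (SE 0.63). E2F2 was 1482 and 691 normalized counts in S5 and S14 and 177 to 227 in pBTSCs. Between title sets 28 of the 59 genes differed, against 23.3% of all genes tested. Of the 23 mitosis genes 17 did. Between the title ranges 0 did, and E2F2 alone was higher in CD45-/EpCAM- than in CD45-/EpCAM+ cells, by 2.19 (SE 0.42, adjusted p = 0.0442, limma).

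Against the other liver groups no gene of the set was called. Against CD45-/EpCAM+ cells 0 of 42 genes were called, where 14.8% of all genes were higher and 10.3% lower, and the median of the 42 was -0.19. The largest fold change was that of CDC25C, the phosphatase that starts mitosis, at -0.91, which was not called. Against CD45+ cells 0 were called, with 11% of all genes higher and 9.54% lower and a median of -0.16. Without S12 to S14 the medians against CD45-/EpCAM+ and CD45+ cells were both 0.12. Without the shallow libraries they were 0.11 and -0.16. The CD45+ libraries of the 5 title sets themselves spanned a median 4.04-fold over these genes. Against CD31+ cells 0 were called, with 6.73% higher and 7.62% lower and a median of 0.02. Against CD146+ cells 0 were called, with 14.5% higher and 7.75% lower and a median of 0.00. The counts of the 42 genes at an unadjusted p under 0.05 were 2, 0, 0 and 1 in these 4 comparisons (limma), and all 4 share the pBTSC libraries. Among the other cell cycle genes GMNN, the geminin that blocks relicensing of replication, was lower in pBTSCs than in CD45-/EpCAM+ cells by -1.17 (SE 0.17, adjusted p = 3.2e-05, limma). It was 335 to 562 normalized counts in pBTSCs and 594 to 1353 in liver, with no overlap. Of the 59 other cell cycle genes, 0 were higher and 1 lower in pBTSCs than in CD45-/EpCAM+ cells, and the same counts held against CD45+ cells. Against CD31+ cells 1 was higher and 0 lower, and against CD146+ cells 5 were higher and 0 lower. Without the shallow S22, which leaves 1 CD146+ library, 0 of the 59 were called against CD146+ cells and 2 had an unadjusted p under 0.05 (limma), and the share of all genes called in either direction went from 22.2% to 7.41%. ORC6, of the complex that marks replication origins, had the largest of these 5 fold changes, and was listed at 0 in S22 but at 145 in S17 and 127 to 176 in pBTSCs.

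CDKN1A shows how a shallow library enters these comparisons. Its fold change in pBTSCs against CD146+ cells was 2.75 and not called. It was listed at 0 in S22, where 3 reads are worth 156, and at 143 in S17, the other CD146+ library. Without S22 it was -0.83.

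By title range, pBTSCs were lower than liver S3 to S14 in 5 genes, namely RRM2, CDC25C, UBE2C, KIF2C and BIRC5, with fold changes of -1.05 to -1.15, where 13.2% of all genes were lower and 18.2% higher. The 5 genes are 11.9% of the set, no more than the share of all genes. The median of the 42 was -0.51, against 0.08 for all genes, and CDC45 was 0.81 higher (adjusted p = 6.9e-04, limma), under the fold needed. Single libraries decided the count, which was 10 without S4, 9 without S3 and 0 without S7 or without S14. Without S2, S5, S12 or S13 it was 1 in each case, and without S15 or S20 it was 3. Shares of all genes are not given for these fits, so whether a count passed its share cannot be read here. Against liver S16 to S23 0 of 42 were called, with 12.2% of all genes higher and 9.62% lower and a median of 0.04. Both comparisons share the pBTSC libraries, and BIRC5 was 161 to 1278 normalized counts from S3 to S14, 221 to 313 from S16 to S23 and 172 to 341 in pBTSCs.

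Within the pBTSCs the 2-day-old H2B-GFP piglet S11 had the highest value for 29 of 42 genes, and the 1-day-old H2B-GFP piglet S7 the lowest for 22. S11 was above S7 in 38 genes, over 2-fold in 16, with a median difference of 0.89, and above S2 in 32, with a median of 0.74. It was above the wild-type S20 in 38 genes, over 2-fold in 3, with a median of 0.36. Of all genes 5.01% were over 2-fold higher in S11 than in S7 and 4.15% than in S20. Medians of all genes in these pairs were -0.01 to 0.00. The 3 genes over 2-fold above S20 were thus not far from the share of all genes. How often S11 was highest or S7 lowest over all genes was not counted. CENPE, a kinetochore kinesin, spread most, with 942, 385, 1554, 773 and 718 normalized counts in S2, S7, S11, S15 and S20, a 4.04-fold range. S2 was not low throughout, since its MCM5 of 817 and TYMS of 1105 were the highest of the 5. Line and age come from the study's supplementary text and not from the labels that formed the groups, so their differences are given as values and were not tested. The summed mesenchymal markers were 350588, 397085, 811245, 1380447 and 1395760 in the same order. The study's supplement lists unequal RNA integrity for these libraries, lowest in S7 and S11, highest in S20 and not available for S15. It lists none for the liver libraries. The part of RNA integrity in these differences, and in those from liver, was not tested.

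Most of the marker lists differed between title sets too, where 23.3% of all genes tested did. The 6 macrophage markers summed to 89998 to 119696 normalized counts in S12 to S14, above all other liver libraries, which ranged from 30304 to 58398, and all 6 differed between title sets. S3 and S4, lowest for the cell cycle genes, were at 31095 and 30304, just below S16 to S19, at 31838 to 35032. The erythroid markers were 7029 to 10404 from S16 to S23 and 15046 to 898492 from S3 to S14, and 9 of 10 differed between title sets. Their sums also parted by label within sets, at 898492 in S5 and 15046 in S3, and at 202619 in S14 and 17299 in S12. The 6 granulocyte markers summed to 157 to 335 from S16 to S23 and 1253 to 46807 from S3 to S14, and 5 of 6 differed. ELANE, the neutrophil elastase, was at 0 to 1.93 from S16 to S23. Of 5 biliary markers 1 differed, of 8 hepatocyte markers 7, of 6 lymphocyte markers 1, of 6 endothelial markers 5 and of 6 mesenchymal markers 5. The biliary and lymphocyte counts were no higher than the share of all genes. The part of any of these cells in the differences of the cell cycle genes was not tested.

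**Figure D5:**
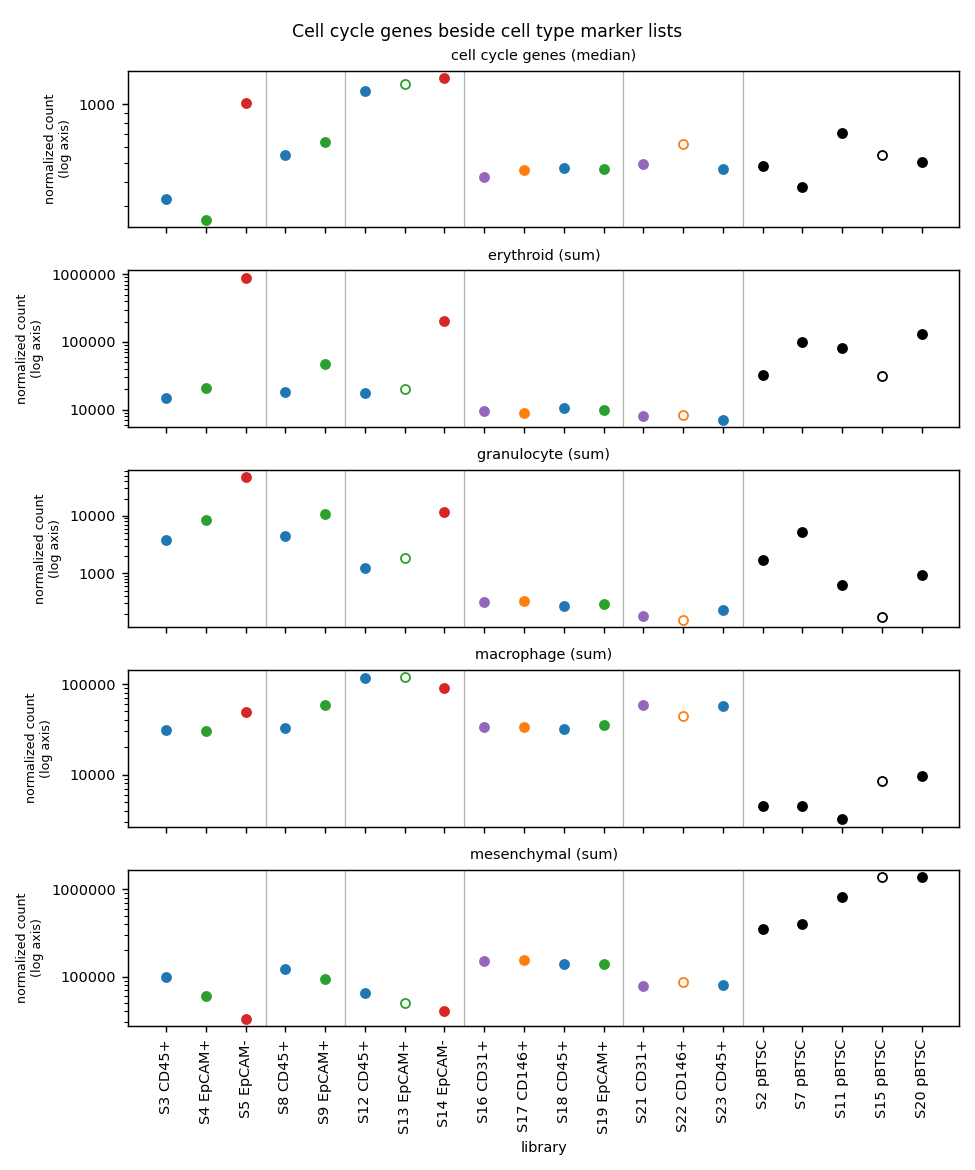
Median normalized count of the 43 cell cycle genes and summed normalized counts of erythroid, granulocyte, macrophage and mesenchymal markers in each library (log axes), coloured by group. S5 and S14 stand out for erythroid and granulocyte markers, S12 to S14 for macrophage markers, and pBTSCs for mesenchymal markers.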

How the data were processed

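Poly(A) RNA of 20 libraries was sequenced by the authors, who deposited 1 table of normalized counts per gene, a signal scaled between libraries. Per the labels, STAR, Salmon and DESeq2 were used, and their versions, the genome build and the step that made each value are not given in the sources used here. Depth was estimated from the worth of 1 read among low values, and 3 reads were taken as the floor, for counting error only.

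Groups were taken from the labels, and liver title ranges and sets from the titles. Genes reaching 10 normalized counts in 2 or more libraries of a comparison were tested on log2(value + 1) with limma 3.58.1 in R 4.3.3 (eBayes with trend, two-sided, Benjamini-Hochberg over all genes tested). Fold changes are on that scale, which understates changes of low genes. A gene was called where its adjusted p was under 0.05 and its log2 fold change exceeded 1 in size. Liver comparisons used the 15 liver libraries with sorted label and title range as covariates, and pBTSC comparisons all 20. Python 3.11.15 was used for the other steps. The scripts were tested on simulated data.

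The members and lists were chosen with earlier results of these data known. Every member could be named. Values in each library were planned for 14 of them, of which CDK1, CCNE1 and CDKN1C have no row. Folds were given for the largest or smallest change of a role list, at most 5 other cell cycle genes and the 10 genes of nearest profile; TYMS, ANLN, CDC45, CENPE, MCM7, E2F2 and GMNN were described further after their values were seen. The planned promoter motif search was not run, since no promoter sequence was used here. Gene levels were not compared between genes, as lengths were not used. The alternatives were other pseudocounts, filters, scalings, weights and covariates, and each library left out. The test between title sets, and leaving out S5 or S12 to S14, were added after the data were seen.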

Additional observations from a re-analysis of the deposited data

Results flagged for a closer look

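A library was singled out where its gap to the nearest library of its group took more of the group's range than Dixon's 95% critical value. Of 126 pairs of gene and group, 17 met this. The critical value is passed about 1 time in 20 by independent normal values. Normalized counts were used here without logs, so the rate by chance is not known. The genes share libraries, so these are not 17 separate observations. Genes outside the set were not put through this rule.

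In the 5 CD45+ libraries S12 stood above the rest for 14 genes. Among the mitotic cyclins and kinases S12 held 873 normalized counts of CCNB2, 230.1 of CDC25C, 429 of AURKB and 1031 of PLK1. Among genes of the spindle checkpoint and APC/C it held 947 of BUB1, 1472 of BUB1B, 878 of MAD2L1, 1283 of CDC20 and 1287 of UBE2C. Among genes of the spindle it held 1742 of KIF20A, 611 of KIF2C, 2543 of TPX2 and 1142 of BIRC5, and MKI67 was at 5563. The next CD45+ library was at 293 for PLK1 and 2204 for MKI67. The macrophage markers of S12 summed to 118275, against 31095 to 57055 in the other 4 CD45+ libraries, and their part was not tested.

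Among pBTSCs CDC25A was lowest in S20, at 389 normalized counts, and E2F8 highest in S11, at 329. Among CD45-/EpCAM+ libraries CCND1 was lowest in S4, at 1895.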

How the results depend on the processing

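Counts are of the 42 genes called. With each library scaled to the same total they were 1 for pBTSCs against CD45-/EpCAM+ cells, 6 against CD45-/EpCAM- cells, 1 against S3 to S14 and 1 against S16 to S23, and the median of all genes in the pBTSC comparisons moved to between 0.32 and 0.51. In the same order 29.1%, 39.4%, 35.1% and 25.6% of all genes were called in either direction. With the same upper quartile the count against S3 to S14 was 3. With array weights it was 1 for the title ranges, 2 against CD45-/EpCAM+ cells, 1 against S3 to S14 and 1 against S16 to S23. There 12.9%, 30.5%, 32.5% and 25.8% of all genes were called. Without the trend 18 genes differed between title sets. Without the 3 shallow libraries the counts were 1 against CD45-/EpCAM+ cells, 1 against S3 to S14 and 19 between title sets, where 26%, 33.9% and 28.2% of all genes were called. With no sorted label 4 genes were called between title ranges, and with title set as covariate 6 between CD45-/EpCAM- and CD45-/EpCAM+ cells. Without S5 5 were called against CD45-/EpCAM- cells. The causes were not tested.

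Leaving out 1 library at a time gave 0 to 1 called gene between title ranges (1 without S4), between CD45-/EpCAM- and CD45-/EpCAM+ cells (1 without S12) and for CD31+ and CD146+ against CD45+ cells (1 without S17). For pBTSCs it gave 0 to 1 against CD45-/EpCAM+ cells (1 without S4 or S19) and against CD146+ cells (1 without S17), 5 to 20 against CD45-/EpCAM- cells and 0 to 10 against S3 to S14. Between title sets it gave 18 to 35. A lone library of a group is assumed to vary like the other groups. Shares of all genes are not given beside these counts, which show only how far the count of the set moved. CDKN1A in pBTSCs against CD146+ cells, at 2.75, turned to -0.67 without the shallow libraries and -0.83 without S22, and was called at 6.34 without S17, which leaves only S22, listed at 0. Of single-gene results against CD45-/EpCAM- cells, 569 kept their side of the threshold and direction, 77 lost the call and 5 gained it. No paired analysis was possible because the labels give no replicate numbers and name no donors for the liver libraries. Title set entered as a covariate (above) and as a random block, under which 0 genes were called between title ranges, as without it. In S13, S15 and S22, where 3 reads are worth 77.1, 37.7 and 156 normalized counts, low genes could not be resolved.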
